A study of Mus musculus with 6 samples.

Results

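The promoters of 10 imprinted mouse genes, Plagl1, Zdbf2, Nnat, Mcts2, Peg10, Sgce, Mest, Peg13, Grb10 and Impact, were examined in a list of 84111 peaks of methylated DNA from chondrocytes, the cells of cartilage. The genes are imprinted genes outside the Gnas, Dlk1-Meg3 and Igf2r clusters and are 10 of 36520 genes on the sequence that the list covers. A peak was assigned to a gene when its midpoint lay in the gene body or within 5 kb of it, which gave 40 different peaks. Methylated DNA had been captured with MBD2, a protein that binds methylated CpG, and sequenced (MBD-seq). The study compared primary chondrocyte cultures from the knee articular cartilage of mice at postnatal days 3 to 5. There were 3 control cultures, labelled Dnmt1 flox, and 3 conditional knockout (cKO) cultures, labelled Prx1-Cre;Dnmt1 flox/flox. Prx1-Cre is active in limb mesenchyme, so cells of other origin in a culture would keep Dnmt1, the enzyme that copies CpG methylation onto new DNA strands. The list is titled as Dnmt1-mediated DNA methylation regions, but it does not name the group of the 3 merged datasets on which the peaks were called. It holds no value for any single culture, so no difference between control and cKO, no spread between animals and no depth per sample can be given, and no expression values were at hand to check the cell type by its markers.

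An imprinted gene is expressed mainly from the copy inherited from one parent. At the genes described here the mark is, in most cases, CpG methylation that is set in the oocyte over a CpG-rich promoter, so that in body cells the maternal copy of that promoter is methylated and the paternal copy is not. Such a promoter is therefore methylated on some of the DNA molecules of every cell, while most CpG-rich promoters are methylated on few or none. Copying of these marks at each division depends on Dnmt1, and they are shielded by the zinc finger protein ZFP57, which binds the methylated hexamer TGCCGC. Zdbf2 is a known exception within the group: at its upstream start the difference between the parental copies is described as transient. Its lasting mark lies before the downstream start on the paternal copy.

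The sequences on which these marks would lie are shown first, for the starts that a peak overlapped and for 2 starts of the same genes that no peak overlapped. Start windows of RefSeq (GRCm38.p6, 250 bases before to 50 after a start) were found for 6 of the 10 genes, with 10 windows in all. The 250 bases before the start are printed 5′ to 3′, and capitals mark TGCCGC or its reverse complement GCGGCA.
Plagl1 (chr10:13090582-13090831, plus strand): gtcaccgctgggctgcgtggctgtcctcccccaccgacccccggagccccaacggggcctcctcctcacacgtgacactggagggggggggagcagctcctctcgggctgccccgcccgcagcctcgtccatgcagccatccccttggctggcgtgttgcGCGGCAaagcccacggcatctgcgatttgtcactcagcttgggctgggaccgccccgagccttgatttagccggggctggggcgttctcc
Nnat (chr2:157559828-157560077, plus strand): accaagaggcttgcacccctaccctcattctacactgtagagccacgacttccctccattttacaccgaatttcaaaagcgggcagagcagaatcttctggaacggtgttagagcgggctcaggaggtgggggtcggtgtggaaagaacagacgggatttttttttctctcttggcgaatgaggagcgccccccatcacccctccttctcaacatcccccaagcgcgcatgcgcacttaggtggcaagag
Mcts2 (chr2:152686898-152687147, plus strand): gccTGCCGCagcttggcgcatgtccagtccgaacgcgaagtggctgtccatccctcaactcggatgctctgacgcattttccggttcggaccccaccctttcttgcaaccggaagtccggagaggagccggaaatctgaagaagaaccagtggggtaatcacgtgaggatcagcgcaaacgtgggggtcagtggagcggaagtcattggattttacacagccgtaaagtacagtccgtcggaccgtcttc
Mest, internal start (chr6:30737800-30738049, plus strand): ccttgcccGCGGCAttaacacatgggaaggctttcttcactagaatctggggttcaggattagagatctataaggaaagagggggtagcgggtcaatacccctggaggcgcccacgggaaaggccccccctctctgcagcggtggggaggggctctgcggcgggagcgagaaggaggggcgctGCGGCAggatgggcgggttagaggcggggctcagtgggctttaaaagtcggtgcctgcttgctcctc
Zdbf2, upstream start (chr1:63200108-63200357, plus strand): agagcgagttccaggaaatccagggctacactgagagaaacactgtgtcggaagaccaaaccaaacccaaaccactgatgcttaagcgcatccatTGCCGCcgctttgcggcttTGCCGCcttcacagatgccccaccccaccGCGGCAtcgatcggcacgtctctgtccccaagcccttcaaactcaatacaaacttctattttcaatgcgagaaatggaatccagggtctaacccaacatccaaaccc
Zdbf2, downstream start (chr1:63273019-63273268, plus strand): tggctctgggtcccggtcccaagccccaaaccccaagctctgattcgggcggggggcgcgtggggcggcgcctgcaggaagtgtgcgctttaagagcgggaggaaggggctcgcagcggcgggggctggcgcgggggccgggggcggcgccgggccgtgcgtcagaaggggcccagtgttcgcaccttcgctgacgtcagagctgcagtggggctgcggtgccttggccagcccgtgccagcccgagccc
Mest, upstream start (chr6:30733256-30733505, plus strand): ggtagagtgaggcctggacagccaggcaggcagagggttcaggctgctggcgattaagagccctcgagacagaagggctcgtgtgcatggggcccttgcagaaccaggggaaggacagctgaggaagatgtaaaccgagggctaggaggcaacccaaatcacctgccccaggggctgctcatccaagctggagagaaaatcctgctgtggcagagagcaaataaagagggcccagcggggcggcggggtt

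Peaks overlapped 6 of these 10 windows, at least 1 in each of Plagl1, Nnat, Mcts2, Mest and Zdbf2, and the remaining gene, Grb10, had none. Across the list, peaks overlapped 1040 of 24394 windows (4.26%), and among CpG-island-like windows (over 50% G and C, and over 0.6 of the CpG expected from base composition) 170 of 8395 (2.03%). The share overlapped by a peak above the lowest background, a value explained below, was 1.18% of CpG-island-like windows. The overlapped windows of the imprinted genes held 15 to 26 CpG dinucleotides, with 26 at Plagl1, 25 at Mcts2, 17 at Nnat, 17 at the internal start of Mest and 15 at the upstream start of Zdbf2. The windows without a peak lay at both extremes: 45 CpG at the outer start of Grb10 and 38 at the downstream start of Zdbf2, but 9 at the inner start of Grb10 and 8 at the upstream start of Mest. The 2 printed windows without a peak thus differ in opposite directions from the starts of the same genes that carry one.

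**Figure D1:**
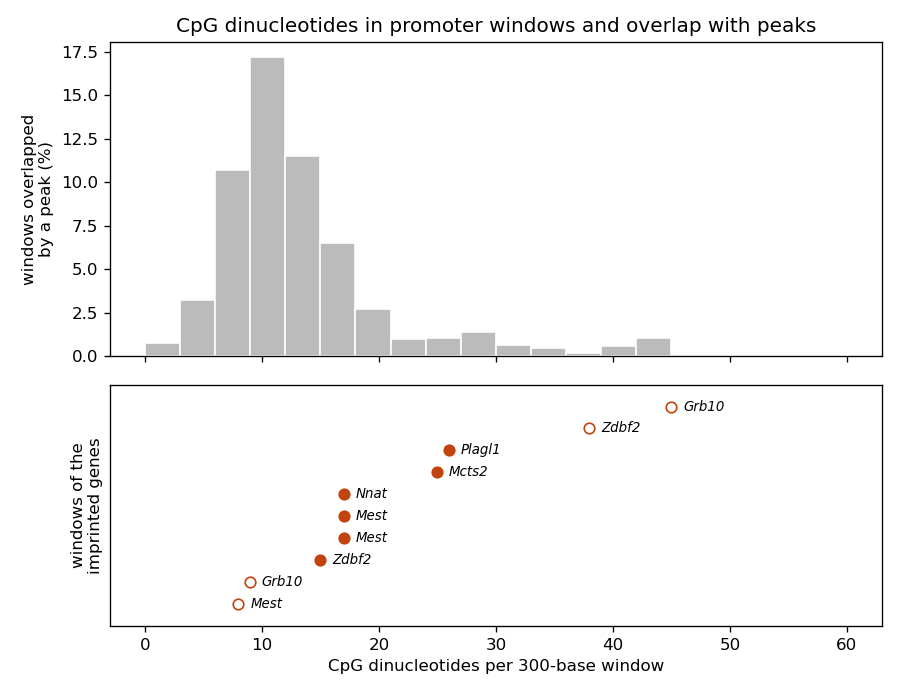
Top: share of all promoter windows overlapped by a peak (%), by CpG dinucleotides per 300-base window, for bins of at least 20 windows. Bottom: the 10 windows of the imprinted genes, filled where a peak overlapped them. The 6 overlapped windows sit between 15 and 26 CpG, and the 4 without a peak lie outside that range.

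The hexamer TGCCGC, searched on both strands, was present in each of the 6 overlapped windows of the imprinted genes. It occurred 3 times at the upstream start of Zdbf2, 2 times at the internal start of Mest and once at Plagl1, Nnat and Mcts2, where the match at Nnat lies in the 50 bases after the start and is not printed above. The windows of the 2 internal Mest starts overlap almost entirely, so these are 5 separate promoters. Of the 4 windows without a peak only 1, the outer start of Grb10, held the hexamer. It was found in 11.8% of all windows and in 25.2% of CpG-island-like ones, and in 24.1% of the CpG-island-like windows that a peak overlapped. A match describes the letters of a window and does not show that ZFP57 binds there.

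Each peak of the deposited list carries a fold enrichment and a p-value from the authors' peak caller, from which the read pileup at the summit and the background it was set against were recovered. The fold is (pileup + 1)/(background + 1), so a low fold can stand for few reads or for a high background. The background is the expected pileup under the caller's model, in scaled reads, as the higher of a genome-wide average and of the reads of a comparison set around the summit. Most peaks of the list share the same value, 6.37 reads. It is here called the lowest background because no peak with a matched whole-number pileup had less (5 unmatched ones did). A peak above it marks a place where the comparison set held more reads than this value, in some cases by little (6.87 reads at a peak of Mest). Which cultures formed the comparison set is not stated, and neighbouring peaks can share its reads.

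All 10 genes had a peak in the body or within 5 kb, as did 60.2% of all genes on covered sequence and 74.1% of the protein-coding ones. A peak lay within 1 kb of a gene end in 7 of 10, namely Plagl1, Zdbf2, Nnat, Mcts2, Peg10, Sgce and Peg13, against 22.4% of all and 21.8% of protein-coding genes. In each of these 7 at least 1 gene-end peak was above the lowest background, which held for 4.30% of all and 2.85% of protein-coding genes. In or near 10 of 10 genes lay a peak whose background reached 2 times the lowest or more (11.8% of all genes, 15.4% of protein-coding genes). For 10 times the lowest the count was 7 of 10, Plagl1, Nnat, Peg10, Sgce, Peg13, Grb10 and Impact (4.06% of all genes, 5.74% of protein-coding genes). Peg10 and Sgce lie head to head and share 3 peaks, 1 of them the gene-end peak of both, so the 10 genes are 9 loci.

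The 12 gene-end peaks had lower folds and higher backgrounds than the 26 peaks in gene bodies. The peaks are not replicates: Nnat gave 4 and Peg13 gave 3 of those at gene ends, and Zdbf2 gave 6 in bodies. The class also depends on gene length. Gene-end windows of 1 kb, at both ends, take in most of Nnat (2448 bp) and all of Mcts2 (799 bp). The comparison is therefore not one of promoters against bodies. Their median fold was 4.82 (range 2.15 to 10.3), against 10.3 in bodies (range 2.26 to 28.4) and 13.2 over the whole list. The median background was 44.5 reads at gene ends and 6.88 reads in bodies, while the median pileup was 175 and 145 reads, against 127 reads over the list. Of the gene-end peaks 11 of 12 were above the lowest background, and of the body peaks 14 of 26. For protein-coding genes in general the shares were 13.5% of 3651 gene-end peaks and 15.0% of 41538 body peaks, so both counts were above the list share. Median widths were alike, 345 bp at gene ends and 334 bp in bodies. The gene-end and body folds overlapped widely, because the bodies held 2 kinds of peaks. At Mest, Grb10 and Impact the peaks of highest background lay inside the gene, away from both ends, and these had folds of 2.26 to 3.29.

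**Figure D2:**
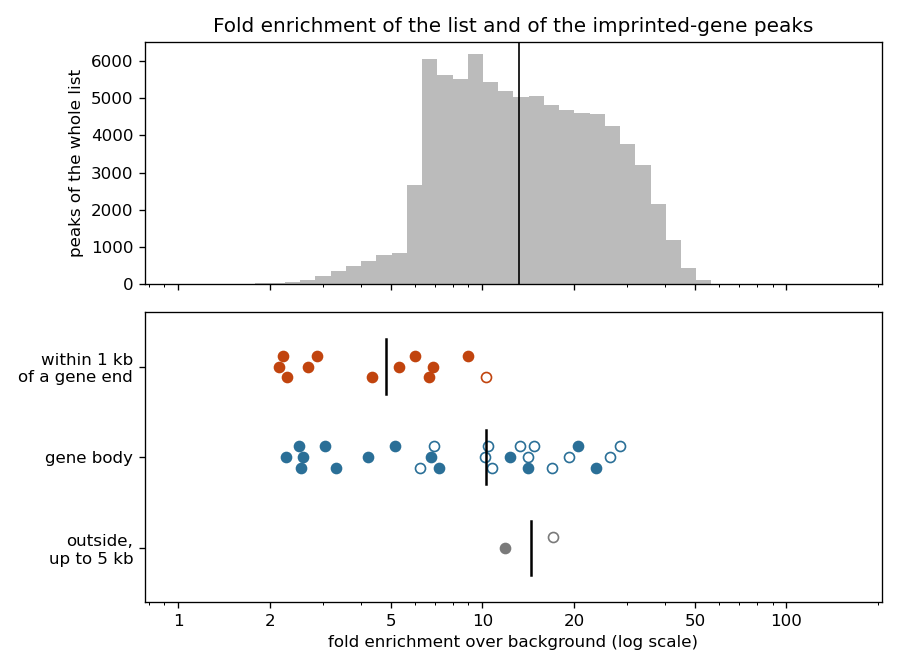
Top: number of peaks of the whole list by fold enrichment (log axis), with a line at the median of 13.2. Bottom: the 40 peaks of the imprinted genes by position, filled where the background was above the lowest value and open where it was at the lowest, with lines at the medians of 4.82 (gene ends, n = 12), 10.3 (bodies, n = 26) and 14.5 (outside, n = 2). All folds under 6 belong to filled points, and no list peak at the lowest background had a fold under 5.97.

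Grouping the peaks by background separated them more fully than grouping by position. The 21 peaks with a background at least 2 times the lowest had a median fold of 3.29 (range 2.15 to 12.3), a median pileup of 182 reads and a median background of 57.0 reads. The other 19 had a median fold of 14.1 (range 6.24 to 28.4), a pileup of 108 reads and a background of 6.37 reads. The excess of pileup over background, in contrast, was similar, with medians of 113 reads in the first set and 102 reads in the second, and 121 reads over the whole list. Low folds among the imprinted-gene peaks thus went with a high background and not with few reads, as the limit for entering the list partly requires. No list peak at the lowest background had a fold under 5.97, and a peak of high background needs more reads to be listed. Fold and background are not independent here, since the background was worked out from the fold.

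In the list as a whole, peaks of such a background mostly had higher pileups. Between 50 and 100 reads of background the list held 3487 peaks with a median pileup of 415 reads and a median fold of 5.90. The 12 peaks of the imprinted genes in this range, from 8 of the 9 loci, had a median pileup of 190 reads and a median fold of 2.56. A pileup under 250 reads was found in 11 of these 12, Zdbf2 being the exception, and in 1.46% of the list peaks in that range. The profile is not particular to these genes. Of the 51 list peaks that had it, 8 lay at Gnas, Gnasas1, Igf2r or Airn and 1 between Dlk1 and Meg3. A further 23 lay in or near other genes. These bounds were chosen after the values were seen, and the difference was not tested because peaks are not replicates.

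**Figure D3:**
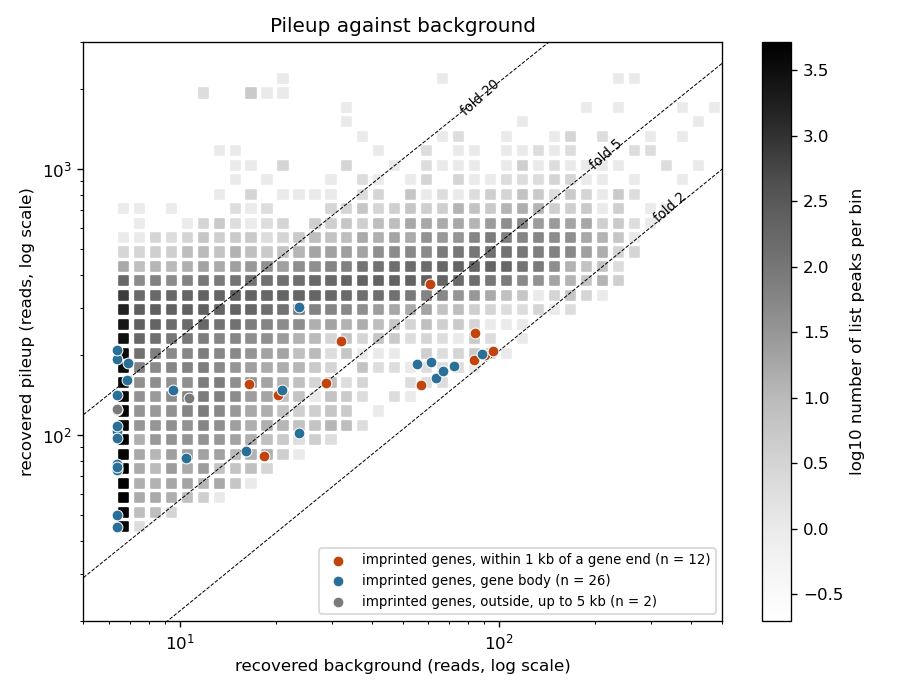
Recovered pileup against recovered background (both in reads, log axes) for the imprinted-gene peaks (coloured by position) over the binned counts of the whole list (grey squares). Between 50 and 100 reads of background, 11 of the 12 imprinted-gene peaks sit under 250 reads of pileup, at the lower edge of the list, and dashed lines mark folds of 2, 5 and 20.

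Several of these peaks were close to the lower limit of the list, a −log10 q of 20.004. Of all 40 peaks, 11 (27.5%) had a −log10 q under 30, compared with 11.4% of the list, and of the 21 with raised background 9 (42.9%), compared with 1.19% of list peaks of a background at least 2 times the lowest. Among the raised peaks the lowest were 20.8 at Peg13, 21.4 and 22.1 at Nnat and 22.7 at Grb10, and a peak of Zdbf2 at the lowest background had 21.7. In 4 of the 40 peaks the summit lay within 10 bp of the edge of its own peak, at 1 bp in Peg13, 4 and 5 bp in Nnat and 7 bp in Grb10, against 0.189% of list peaks. At 6 of 9 loci the raised background was spread over several short peaks, while Plagl1, Zdbf2 and Mcts2 had a single wide one.

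At Plagl1, Mcts2 and Zdbf2 the single raised peak covered the whole start window. Plagl1 encodes a zinc finger transcription factor expressed from the paternal copy. Its start was covered by a peak of 1015 bp (chr10:13090401-13091415) which had 242 reads of pileup and 83.9 reads of background and thus a fold of 2.86. The peaks on either side, centred 833 bp before and 1057 bp after the start, had pileups of 75 and 78 reads at the lowest background and folds of 10.3 and 10.7. The promoter peak of Plagl1 therefore held more reads than its neighbours at a lower fold.

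Mcts2, an intronless retrogene inside an intron of H13, had 1 peak, which covered its start and most of the gene. It was 1300 bp wide (chr2:152686531-152687830), with a pileup of 226 reads over 32.0 reads and a fold of 6.87. This was the lowest of the 9 highest backgrounds per locus and the highest of the 9 folds. H13 itself, which encodes a signal peptide peptidase, held 4 further peaks, all at the lowest background.

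Nnat, which encodes the membrane proteolipid neuronatin and lies in an intron of Blcap, had 5 peaks, all above the lowest background. In order along the chromosome the backgrounds were 10.7, 28.8, 90.1, 83.7 and 16.5 reads, and the pileups 138, 157, 200, 192 and 156 reads. The corresponding folds were 11.9, 5.30, 2.21, 2.28 and 8.97. Background thus rose toward the start and fell away on both sides while the pileup changed far less, and the fold was lowest at the start. The 2 central peaks (chr2:157559932-157560170 and chr2:157560456-157560515) were centred 27 bp before and 407 bp after the start. All 5 peaks in the body of Blcap were these peaks of Nnat.

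Peg10, a gene derived from a retrotransposon, and Sgce, which encodes epsilon-sarcoglycan, are transcribed from one shared promoter region. The gene-end peak of both, which lies just inside Sgce (chr6:4746778-4747116), had a pileup of 141 reads over 20.3 reads, a fold of 6.67. The highest background of the locus lay 1261 bp inside Peg10, at chr6:4748508-4748626, with 182 reads over 72.2 and a fold of 2.50. Farther into Peg10 a peak of 1570 bp (chr6:4754571-4756140) stood apart among the raised peaks, with 302 reads over 23.6 and a fold of 12.3. A further raised peak of Peg10 (chr6:4749132-4749427) had 87 reads over 16.1 and a fold of 5.15. The other assigned peaks of both genes were at the lowest background, with folds of 10.2 and 28.4 in Peg10 and 26.3 and 13.3 in Sgce.

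Mest, which encodes an alpha/beta hydrolase-like protein, had both kinds of peaks next to each other. The peak at its internal start (chr6:30737824-30738072) had a pileup of 185 reads over 55.5 reads and a fold of 3.29. The peak just before it, of 1215 bp (chr6:30736342-30737556), had almost the same pileup, 186 reads, over 6.90 reads, a fold of 23.7. The folds of this pair of neighbours thus differed through the background and hardly through the pileup. A further peak after the start had 102 reads over 23.6, a fold of 4.19, and the first peak of the gene had 161 reads over 6.87, a fold of 20.6. Since the RefSeq entry starts at an upstream start, Mest had no gene-end peak.

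Peg13, a long noncoding RNA inside Trappc9, had 4 peaks, 3 of them at one end of the gene. These had backgrounds of 95.9, 57.0 and 18.3 reads under pileups of 207, 154 and 83 reads, with folds of 2.15, 2.67 and 4.34. The first of them (chr15:72809233-72809594) had the highest background and the lowest fold of all 40 peaks. The 4th peak, at the other side of the gene, had 82 reads over 10.5 and a fold of 7.22. Trappc9 held 40 peaks in all, 34 of them at the lowest background and 4 of the other 6 being those of Peg13.

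Impact, which encodes a regulator of the translational stress kinase GCN2, had its raised peaks inside the gene, 18419 and 19774 bp from one end. They had pileups of 174 and 188 reads over 66.9 and 61.4 reads, with folds of 2.58 and 3.03. The third peak, outside the gene, was at the lowest background, with 125 reads and a fold of 17.1.

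Grb10 encodes an adaptor that restrains insulin signalling and is expressed from one or the other parental copy depending on the tissue and start used. Its 3 raised peaks lay together 1145 to 2357 bp from the inner of its 2 listed starts, within chr11:12025562-12027002, and neither start window was overlapped. The backgrounds were 63.6, 88.5 and 21.0 reads and the pileups 163, 201 and 148 reads, with folds of 2.54, 2.26 and 6.78. The only other peak, in the far part of the gene, had 124 reads at the lowest background and a fold of 17.0.

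Zdbf2, which encodes a protein with a DBF-type zinc finger, differed from the other loci in its pileup. The peak at its upstream start (chr1:63200036-63200853), which lies inside Gpr1, had the highest pileup of the 40 peaks, 370 reads, over 60.7 reads, with a fold of 6.01 and a −log10 q of 156. The highest-background peaks of the other 8 loci had pileups between 174 and 242 reads. Before the downstream start, at distances of 5058 to 11739 bp, lay 4 peaks of another kind. Their pileups were 148, 103, 45 and 108 reads and their folds 14.1, 14.1, 6.24 and 14.8. Of these only the first was above the lowest background, at 9.56 reads. The window of the downstream start itself had no peak.

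**Figure D4:**
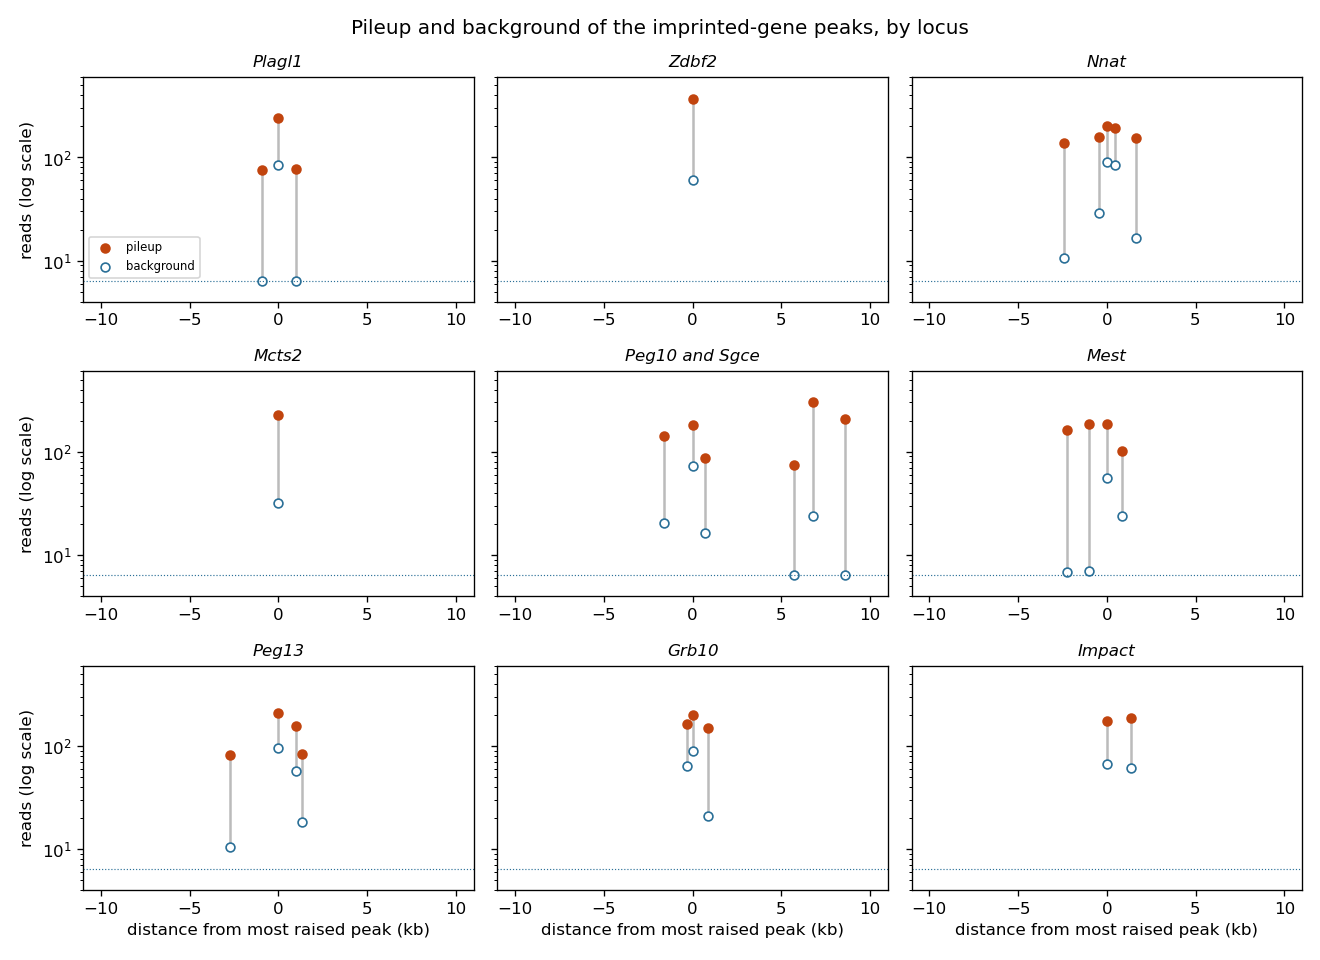
Pileup (filled) and background (open) of each assigned peak (reads, log axis) by distance from the peak of highest background at that locus (kb), for peaks within 10 kb of it; the dotted line is the lowest background of 6.37 reads. The peak at 0 has the highest background by choice. At Plagl1, Nnat, Peg10 and Sgce, Mest, Peg13 and Grb10 lower backgrounds stand on both sides within 3 kb. Zdbf2 and Mcts2 have a single peak in view.

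Over the 9 loci, the stretch of raised background (peaks at least 2 times the lowest, joined over gaps of up to 2 kb) ran from 818 bp at Zdbf2 to 2650 bp at Peg10 and Sgce, with a median of 1441 bp. The most raised peak of a locus had a median background of 72.2 reads, a median pileup of 201 reads and a median fold of 2.58, and the fold was under 4 at 7 of 9 loci. It was a gene-end peak at 5 loci and a body peak at 4. Within 5 kb of it lay 26 peaks in all, including the 9 themselves, and 24 were above the lowest background. The 9 were chosen for their high background, and neighbouring peaks can share the reads of the comparison set, so part of this count is built in. From 5 to 50 kb away from the most raised peak lay 28 peaks, of which 1 was above the lowest background, the wide peak inside Peg10. Over the whole list the share above it was 25.0%, and for protein-coding genes 13.5% of gene-end and 15.0% of body peaks. Zdbf2 and Grb10 had no peak at 5 to 50 kb, so the values for that distance describe the other 7 loci.

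Of 16 host and neighbour genes, 1 had a gene-end peak (Casd1, fold 13.02, at the lowest background), against 22.4% of all and 21.8% of protein-coding genes. Peaks whose background reached 2 times the lowest or more lay at 8 of 16 (11.8% of all genes), of which Blcap, Gpr1 and H13 had it only through peaks of the imprinted genes. The other 5 were Trappc9, Chrac1, Osbpl1a, Phactr2 and Ppp1r9a. For 10 times the lowest the count was 5 of 16 (4.06% of all genes), namely Blcap and Trappc9, through the peaks of Nnat and Peg13, and Chrac1, Osbpl1a and Phactr2. Chrac1, a gene next to Trappc9, had a peak with 542 reads over 82.0 and a fold of 6.54 within 5 kb. In Phactr2, the neighbour of Plagl1, and Osbpl1a, the neighbour of Impact, body peaks reached 102 and 108 reads of background under pileups of 425 and 371 reads.

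Of 10 genes that set or keep imprints, 6 lay on covered sequence, and Dnmt1 itself was not analysed here. None of the 6 had a gene-end peak above the lowest background, which is rare in general (4.30% of all and 2.85% of protein-coding genes). Zfp57 had a gene-end peak with 165 reads at the lowest background and a fold of 22.5. Kdm1b, a histone demethylase needed in the oocyte to set maternal marks, had a body peak with 275 reads over 13.8 and a fold of 18.6. Its other body peaks were at the lowest background. The peaks in Dnmt3a, Dnmt3b, Dnmt3l and Uhrf1 were all at the lowest background.

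Of the 7 imprinted genes of the Gnas, Dlk1-Meg3 and Igf2r clusters found in the gene table, all had a gene-end peak (22.4% of all genes). In 5 of them a gene-end peak was above the lowest background (4.30% of all genes). Their 13 gene-end peaks had a median fold of 5.75 and a median background of 11.5 reads, against 4.82 and 44.5 reads for the 12 of the genes described here. A background at least 2 times the lowest, in the body or within 5 kb, occurred at 5 of the 7 (11.8% of all genes). One of at least 10 times occurred at 4 (4.06% of all genes), Gnas, Gnasas1, Igf2r and Airn. Gnas and Gnasas1 share peaks, as do Igf2r and Airn, so these 4 genes are not separate loci. The gene-end peaks of these 4 genes ranged from 6.37 to 93.7 reads of background. The higher values were 93.7, 70.5, 62.6, 37.1, 32.4 and 30.4 reads, but Igf2r also had gene-end peaks at 9.28 and 6.37 reads and Gnas another at 6.37 reads. Those of Dlk1, Meg3 and Rtl1 ranged from 6.37 to 11.5 reads.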

How the data were processed

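MBD-seq had been run on 6 cultures (3 control, 3 cKO). Per the submitters' processing notes, fastp, Bowtie2 and MACS2 were used with the builds mm10 and GRCm38; versions and settings are not given in the sources used here. Per the peak names, 3 datasets were merged with Samtools before calling. The deposited list has narrowPeak columns under other names, per the file headers and values: start, end and summit offset, a fold enrichment (ratio over background), −log10 p and −log10 q, and a score, which is 10 times the −log10 q cut to a whole number. The deposited list used here covers 16 chromosomes, chromosome 6 in part, and 1 incomplete line was left out.

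The whole-number pileup and the background were solved from fold and Poisson p as MACS2 defines them, an inference from the values; 99.97% of peaks matched within 1% of the spacing between whole pileups, including all 40 described. The solving step was tested on data simulated with the same formulas, which checks the arithmetic and not whether the caller used them. Simulated backgrounds stayed below the highest ones described here. Genes (RefSeq, GRCm38.p6, no strand) starting beyond the first 3 Mb of a chromosome were used, and promoter windows came from the same build. No test was run, since the list has no values per sample. Peak coordinates are 1-based. Python 3.11.15, numpy 2.4.6, scipy 1.17.1 and pandas 2.3.3 were used.

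All 10 genes were named by rule, with host, imprint-keeping and other imprinted genes by list. The genes and lists were chosen with earlier results of these data known. Alternatives were gene-end windows of 500 bp and 2 kb, placement by summit or by an overlap of 1 bp, −log10 q of at least 50 or 100, and a reach of 2 or 10 kb.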

Additional observations from a re-analysis of the deposited data

How the results depend on the processing

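No paired analysis was possible because no column of values belongs to a single culture; for the same reason no replicate was left out. Placement by summit moved none of the results below, and neither did a reach of 2 kb or 10 kb, except that these gave 38 and 45 assigned peaks in place of 40. Stricter limits moved counts and medians. At a −log10 q of at least 50, 22 peaks stayed, 6 genes had a gene-end peak and 5 gene-end peaks were above the lowest background, with median folds of 6.77 at gene ends and 14.4 in bodies. At 100 these were 11 peaks, 2 genes (Mcts2 and Zdbf2), 2 gene-end peaks, 6.44 and 19.9. The median fold at gene ends was 4.34 with a window of 500 bp, 5.22 with 2 kb and 5.66 when peaks were counted by overlap. In bodies it was 9.57 with 500 bp and 11.4 with 2 kb. The gene-end median was below the body median in every one of these settings. Depth per sample is unknown, and counting error within a peak was not estimated.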

Other observations

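Peaks of high background and modest pileup, as found at the imprinted genes both at and away from listed starts, were few in the list. Their other locations were read out as values. With a background of 50 to 100 reads and a pileup under 250 reads, bounds chosen after the values were seen, the list held 51 peaks. Of these, 11 (21.6%) were the peaks of Plagl1, Nnat, Peg10 and Sgce, Mest, Peg13, Grb10 and Impact described above. A further 8 lay in or within 5 kb of Gnas, Gnasas1, Igf2r or Airn, and 1 lay between Dlk1 and Meg3 (chr12:109528281-109528449, 196 reads over 65.5, fold 2.96). Together these made up 20 of the 51 peaks (39.2%). 1 peak lay at Slc38a4, an amino acid transporter gene that is also known as imprinted in the mouse (chr15:97054380-97055327, 191 reads over 58.3, fold 3.24). The other 30 were 23 in or near other genes and 7 with no gene within 5 kb. Among them were a pair beside Barx1, with pileups of 201 and 231 reads over 71.0 and 63.6 reads, and a pair beside Pik3c3 on chromosome 18, with 193 and 148 reads over 79.0 and 50.8 reads. A peak at Ddx4, a germline RNA helicase gene, had 240 reads over 50.1 reads. The genes named here were picked after their values were seen, and no test was made of how often such peaks fall at imprinted genes.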
